A study of Mus musculus with 12 samples.

Results

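ABC transporters other than Cftr were followed in colon and small intestine of mice with and without Cftr in the intestinal epithelium. They were taken as every gene on the array with a platform symbol of the subfamilies Abca to Abcg, leaving out Abca1, Abcg5 and Abcg8. The rule found 45 genes read by 102 probes, among 19057 named genes in the table. Of the 45, 27 gave enough signal to be tested, which is 60% against 64% of all named genes. Gene expression was measured with 12 Illumina mouse BeadChip arrays, in 4 groups of 3. All mice were C57BL/6, aged 3 months. The wild-type group had the genotype Apc+/+ Cftr+/+-Villin-Cre in its genotype label, while a growth protocol gives Apc+/+ Cftr+/+ with no Cre. Mutant mice were Apc+/+ Cftrfl/fl-Villin-Cre, so that floxed Cftr is removed where the Villin promoter drives Cre, which is the intestinal epithelium, and cells outside it keep their Cftr. The design text speaks of the mutants as deficient in Apc as well, and the genotype label was followed. Colon samples are labelled as epithelium of the distal colon, although a protocol says that whole colon tissue was taken. Small-intestinal samples were mid-duodenal wall after removal of the villi, with epithelial, stromal and other cells. Tissue and preparation therefore cannot be told apart here, nor can fewer cells of a type be told from less RNA per cell. The design text says that both tissues came from the same mice, but the labels do not say which arrays came from the same mouse. The tissue tests therefore treat all arrays as independent. The p-values reflect array-to-array spread only, which may be partly technical.

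ABC proteins bind and hydrolyse ATP, and most use it to move a substrate across a membrane. In the gut, the B, C and G subfamilies hold the pumps that send drugs, conjugated toxins and bile salts back into the lumen or on to the blood, and the A and G subfamilies hold lipid transporters. The D subfamily serves peroxisomes and lysosomes, several B members sit in mitochondria or lysosomes, and the E and F subfamilies have no membrane domain and act on ribosomes. Cftr belongs to the C subfamily but is a chloride and bicarbonate channel, and Abcc8 and Abcc9 of the same subfamily are regulatory subunits of potassium channels.

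The deposited log2 signals have a floor near 7.70, where a probe carries no transcript signal. A probe counted as above background when its log2 signal passed 7.78, and a gene was tested when a probe of it passed on at least 3 arrays. Log2 differences of dim genes are understated by that floor. Arrays from the same group differed by an SD of 0.104 to 0.224 over all tested features, and arrays of different tissues by 0.58 to 0.67. Some arrays stood apart in marker genes. The mean log2 signal of 10 tested pancreatic acinar markers was 11.55 on small-intestinal wild-type array 2, 9.89 on mutant array 1 and 11.37 on mutant array 2, and 8.20 to 8.36 on the other small-intestinal arrays. The mean of 8 tested Paneth cell markers was 10.42 on colon mutant array 2 and 8.21 to 8.95 on the other colon arrays. Cftr itself, whose probe has no known position relative to the deleted part, differed between mutant and wild type by -0.04 ± 0.080 (SE) in small intestine and 0.09 ± 0.080 in colon on the log2 scale (limma, adjusted p = 0.998 and 0.957). Errors after ± are the SE of the fit throughout, from 3 arrays a group.

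The drug pumps best known from intestinal epithelium gave little or no signal on these arrays. Abcb1a and Abcb1b encode the 2 mouse P-glycoproteins, which return many drugs to the lumen. Abcb1a was read by 1 probe, at 7.66, 7.68 and 7.69 on the wild-type and 7.71, 7.74 and 7.66 on the mutant colon arrays, and at 7.79, 7.74 and 7.71 and 7.71, 7.73 and 7.68 on the corresponding small-intestinal arrays. Only 1 of its 12 values, from wild-type small intestine, passed the limit. Abcb1b lay between 7.67 to 7.80 and passed on 1 array. Abcg2, the breast cancer resistance protein of the luminal membrane, lay between 7.66 to 7.75 and passed on none. Abcb11, the bile salt export pump of liver, lay between 7.69 to 7.77, and Abcb4, which moves phosphatidylcholine into bile, lay between 7.68 to 7.75. Neither passed on any array. Abcc1, a conjugate exporter of the basolateral membrane, was read by 3 probes, of which the highest single value was 7.79.

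In all, 18 of the 45 genes were not tested. For 10 of them no probe passed the limit on any array, with 7.77 as the highest value. These were Abcb4, Abcb11, Abcg1, Abcg2, Abcg3 and the A members Abca4, Abca5, Abca8b, Abca13 and Abca16. The remaining 8 passed on 1 or 2 arrays at most, with a highest value of 7.82 for Abca6. They were Abcb1a, Abcb1b, Abcc1, Abcc8, Abcc12, Abcd2, Abcg4 and Abca6. None of the 4 G members in the table was tested. A value at the floor says only that these probes gave no signal above background, not that the transcript was missing. Of the 27 tested genes, 17 were above the limit on all 12 arrays. The other 10, such as Abca9 and Abcc9, entered through part of the arrays, so that a gene above background in 1 group alone had to differ, and counts over the tested genes are descriptions.

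**Figure D1:**
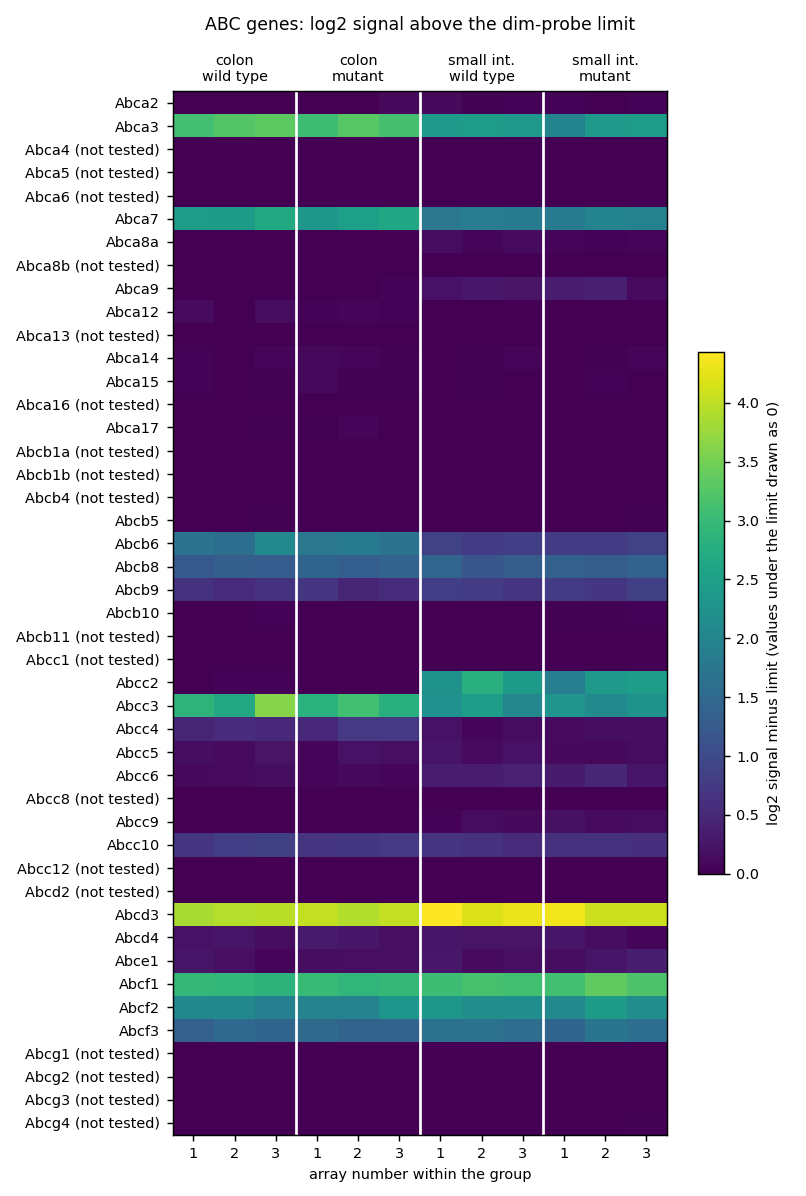
Log2 signal above the dim-probe limit of 7.78 (colour) for the 45 ABC genes (rows) on the 12 arrays (columns, 3 per group), with values under the limit drawn as 0 and the 18 untested genes marked. Rows are read along the arrays and not against each other, since probes differ in brightness: Abcc2 is dark in colon and bright in small intestine, while Abca3, Abca7, Abcb6 and Abcc3 are brighter in colon.

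Promoters are shown for the genes with the largest called tissue differences, as context for the values that follow. Of the 45 genes, 35 matched a promoter window in RefSeq (build GRCm38.p6, 250 bases before to 50 bases after the gene's start), and Abcc3 is without one. The windows are chr19:43782058-43782357 on the plus strand for Abcc2, chr1:75180343-75180642 on the minus strand for Abcb6, chr17:24351773-24352072 on the plus strand for Abca3 and chr10:79996244-79996543 on the plus strand for Abca7. Each is written 5′ to 3′ along the gene. Capitals mark matches to the motifs described after the sequences.
Abcc2: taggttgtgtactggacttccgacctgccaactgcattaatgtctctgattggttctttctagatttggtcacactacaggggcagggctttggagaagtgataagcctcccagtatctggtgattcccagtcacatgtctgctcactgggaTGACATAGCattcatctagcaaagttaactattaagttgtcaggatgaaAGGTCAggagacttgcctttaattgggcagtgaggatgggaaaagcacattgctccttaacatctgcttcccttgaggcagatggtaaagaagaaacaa
Abcb6: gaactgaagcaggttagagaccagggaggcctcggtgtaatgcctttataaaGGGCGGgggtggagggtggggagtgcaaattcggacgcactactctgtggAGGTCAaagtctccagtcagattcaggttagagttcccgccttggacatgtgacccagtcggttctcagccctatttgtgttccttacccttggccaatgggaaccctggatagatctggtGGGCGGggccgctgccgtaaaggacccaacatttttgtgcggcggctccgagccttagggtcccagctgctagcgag
Abca3: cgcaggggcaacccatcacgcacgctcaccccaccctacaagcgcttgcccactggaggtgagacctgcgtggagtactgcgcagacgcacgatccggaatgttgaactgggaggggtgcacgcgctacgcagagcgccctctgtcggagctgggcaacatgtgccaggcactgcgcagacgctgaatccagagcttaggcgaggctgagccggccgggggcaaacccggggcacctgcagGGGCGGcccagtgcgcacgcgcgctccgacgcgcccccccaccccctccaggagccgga
Abca7: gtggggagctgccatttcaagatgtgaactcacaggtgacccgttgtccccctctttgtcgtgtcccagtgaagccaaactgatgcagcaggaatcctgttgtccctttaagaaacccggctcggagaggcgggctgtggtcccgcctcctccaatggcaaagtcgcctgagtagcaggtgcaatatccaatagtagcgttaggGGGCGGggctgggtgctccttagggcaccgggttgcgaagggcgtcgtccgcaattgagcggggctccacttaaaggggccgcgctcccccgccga

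A total of 6 motifs was searched on both strands. They were AGGTCA (a nuclear receptor recognition hexamer), TTTATG (CDX), CACGTG (E-box), TGACNNNGC (antioxidant response core), GGGCGG (GC box) and GTTAAT (HNF1). The E-box reads the same on both strands, and the antioxidant core can overlap the reverse strand of the nuclear receptor hexamer, as both begin with TGAC there. The Abcc2 window, with 45% G and C, held AGGTCA and an antioxidant response core. The Abcb6 window held AGGTCA once and a GC box at 2 places, while those of Abca3, with 69.7% G and C, and Abca7 held a GC box each. Over 32841 promoter windows of the same length, AGGTCA was found in 16.3%, TTTATG in 11.9%, CACGTG in 7.15%, TGACNNNGC in 12.4%, GGGCGG in 35.7% and GTTAAT in 7.1%. Among the 27 windows that belong to 23 of the tested ABC genes, AGGTCA was in 4, CACGTG in 4, TGACNNNGC in 5 and GGGCGG in 13, and TTTATG and GTTAAT were in none. A match is a match of letters and not a binding site.

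Setting the 2 tissues of wild-type mice side by side asks how the signal of each transporter differs between the 2 kinds of sample. Position along the gut cannot be told apart from preparation here. Abcc2, a luminal exporter of conjugates, was the member with the largest difference, 5.49-fold higher in the small-intestinal samples. Abcb6, Abca3, Abcc3 and Abca7 were 1.62- to 1.96-fold lower there. In all, 16 of the 27 tested members passed the limma test (adjusted p under 0.05 over 15996 features), where 41.2% of all features did. Of the 27, 9 were higher in small intestine, against 17.9% of all features, and 7 were lower, against 23.4%. The median log2 difference was 0.03 over the 27 members and -0.02 over all features, and the median size was 0.17 against 0.11. The 3 small-intestinal and 3 colon arrays did not overlap for 18 of the 27, against 53.9% of all features. Without the 3 arrays with acinar signal, which leaves 2 wild-type and 1 mutant small-intestinal array, 14 of the 16 calls remained. With the mode of all values subtracted and 16 added before the log, wild-type differences of dim genes were larger. They were 5.03 for Abcc2, 1.66 for Abca9, 0.89 for Abcc6 and -1.24 for Abcc4, each in the same direction. Their sizes depend on the constant added, which was chosen and not measured.

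Cell type markers moved with the tissue. All 13 tested markers of absorptive enterocytes were higher in small intestine, with a mean log2 signal of 12.18 to 12.46 on its 6 arrays against 8.06 to 8.49 in colon, where Slc2a2 and Slc2a5 stayed under the limit. All 7 tested colonocyte markers were lower, at 8.08 to 8.46 in small intestine and 11.82 to 12.04 in colon. The 10 epithelial markers, of which 7 were lower and 2 higher in small intestine, gave signal in all samples, at 11.16 to 11.23 in small intestine and 11.48 to 11.70 in colon. The 7 tested smooth muscle markers averaged 10.34 to 10.51 in small intestine and 7.86 to 8.04 in colon, with Cnn1, Myh11 and Tagln under the limit on every colon array. The 7 tested fibroblast markers averaged 9.01 to 9.19 and 7.88 to 8.28, with Col3a1, Lum and Pdgfra under the limit on every colon array. Their part in the differences of the ABC genes was not tested.

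**Figure D2:**
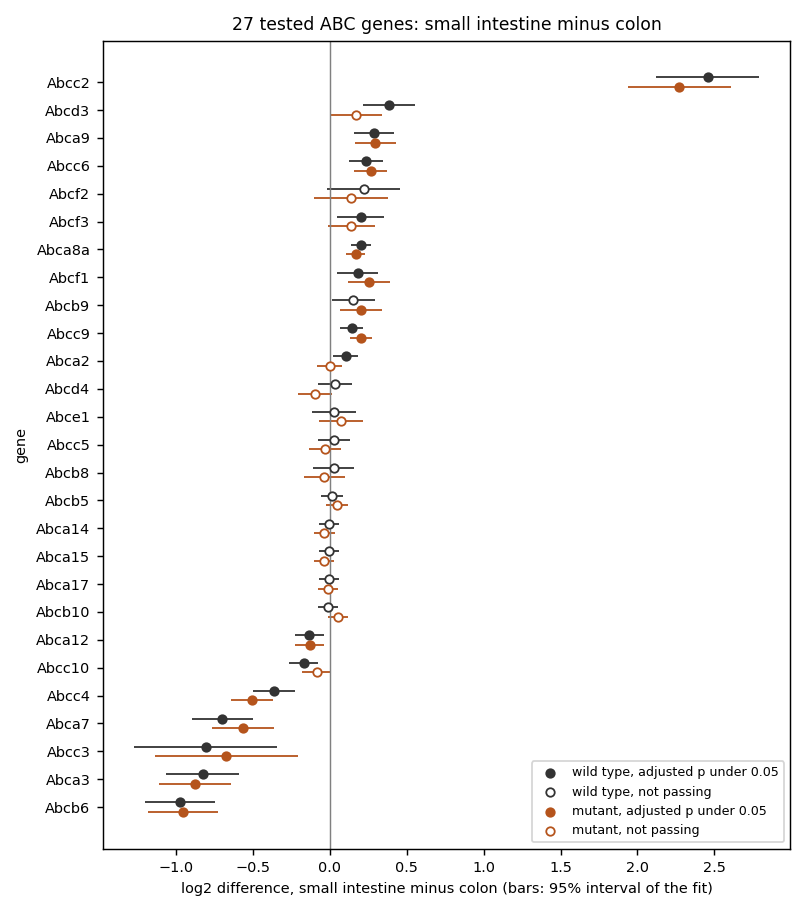
Log2 difference, small intestine minus colon, with the 95% interval of the limma fit, for the 27 tested ABC genes in wild type (black) and mutant (orange), filled where the adjusted p was under 0.05. Abcc2 stands at 2.46 and 2.27, and Abcb6, Abca3, Abcc3, Abca7 and Abcc4 lie to the left of 0 in both genotypes.

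Of the 12 exporters of the cell surface 6 were tested, and in wild type 2 were higher in small intestine (17.9% of all features), 3 were lower (23.4% of all features) and 1 did not pass. Abcc2 (Mrp2), which exports glutathione and glucuronide conjugates through the luminal membrane, read 7.77, 7.83 and 7.82 on the wild-type and 7.77, 7.78 and 7.74 on the mutant colon arrays. The small-intestinal values were 10.03, 10.56 and 10.20 in wild type and 9.68, 10.16 and 10.26 in mutant. In colon only 2 wild-type arrays passed the limit of 7.78, and the lowest small-intestinal value was 9.68. The wild-type difference was 2.46 ± 0.15 on the log2 scale (5.49-fold, limma adjusted p = 4.12e-07), and a second probe gave 0.55. The mean of both probes differed by 1.5. In mutants all colon arrays were under the limit and Abcc2 was at least 4.76-fold higher in small intestine (adjusted p = 8.64e-07). With 2 colon arrays above the limit, this probe met the rule of 3 arrays only through small-intestinal arrays. Both p-values are therefore descriptions and not independent support for the difference. Abcc6, whose human counterpart is needed for the release of ATP from cells, read 7.89, 7.91 and 7.95 on the wild-type and 7.84, 7.90 and 7.86 on the mutant colon arrays. On the small-intestinal arrays, wild type gave 8.14, 8.13 and 8.19 and mutant 8.11, 8.25 and 8.04. The tissues did not overlap, and the wild-type difference was 0.23 ± 0.049 (1.18-fold, limma adjusted p = 0.00286).

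Abcc3, Abcc4 and Abcc10 were the exporters lower in small intestine. Abcc3 (Mrp3), which exports conjugates and bile salts through the basolateral membrane, read 10.67, 10.46 and 11.41 on the wild-type and 10.61, 10.88 and 10.57 on the mutant colon arrays. Wild-type small intestine read 10.02, 10.25 and 9.84, and mutant small intestine 10.09, 9.90 and 10.05. Colon wild-type array 3 was the highest of all, and the tissues did not overlap in either genotype. Abcc3 was 1.75-fold lower in wild-type small intestine (log2 difference -0.81 ± 0.21, limma adjusted p = 0.00987). Without colon wild-type array 3 the difference was -0.53 and still passed. Abcc4 (Mrp4), an exporter of cyclic nucleotides and prostaglandins, read 8.25, 8.34 and 8.29 on the wild-type and 8.29, 8.51 and 8.53 on the mutant colon arrays. In the small intestine it read 8.0, 7.87 and 7.93 in wild type and 7.92, 7.96 and 7.94 in mutant. All colon values were higher than all small-intestinal values, with the 2 highest in mutant colon. The wild-type difference was -0.36 ± 0.061 (1.29-fold, limma adjusted p = 0.00069). Abcc10 (Mrp7), a drug exporter, read 8.49, 8.60 and 8.62 on the wild-type and 8.46, 8.5 and 8.52 on the mutant colon arrays. The small-intestinal values were 8.46, 8.41 and 8.33 in wild type and 8.41, 8.43 and 8.38 in mutant. Its tissues were apart in each genotype, with a wild-type difference of -0.17 ± 0.042 (limma adjusted p = 0.00755). A second Abcc10 probe gave -0.03 and did not pass. Abcc5 (Mrp5), an exporter of cyclic nucleotides, had a wild-type difference of 0.03 (95% interval -0.08 to 0.13), which did not pass.

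Of the 15 A subfamily members 9 were tested, and in wild type 3 were lower and 3 higher in small intestine, against 23.4% and 17.9% of all features. Abca3, which loads phospholipid into the lamellar bodies of lung surfactant cells, read 10.90, 11.03 and 11.10 on the wild-type and 10.84, 11.06 and 10.90 on the mutant colon arrays. On the small-intestinal arrays, wild type gave 10.18, 10.22 and 10.14 and mutant 9.78, 10.18 and 10.21. Every colon array was above every small-intestinal array, with a wild-type difference of -0.83 ± 0.11 (1.77-fold, limma adjusted p = 0.000108), and a second probe gave -0.69. Abca7, a phospholipid transporter linked to phagocytosis, read 10.21, 10.20 and 10.48 on the wild-type and 10.12, 10.29 and 10.42 on the mutant colon arrays. Wild-type small intestine read 9.54, 9.66 and 9.60, and mutant small intestine 9.63, 9.79 and 9.72. Again no colon value reached down to the small-intestinal values. The wild-type difference was -0.70 ± 0.090 (1.62-fold, limma adjusted p = 0.000109), and a second probe gave -0.28.

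The dimmer A members were near the floor in 1 of the tissues. Abca9, a member of a cluster of A genes on chromosome 11, read 7.76, 7.77 and 7.71 on the wild-type and 7.78, 7.73 and 7.82 on the mutant colon arrays. In the small intestine it read 8.01, 8.08 and 8.01 in wild type and 8.12, 8.18 and 7.92 in mutant. All wild-type colon values were under the limit, and it was at least 1.19-fold higher in wild-type small intestine (limma adjusted p = 0.00243). With 1 mutant colon array above the limit, this probe met the rule of 3 arrays only through small-intestinal arrays, so its p-value is a description. A second Abca9 probe gave 0.04 in wild type and 0.02 in mutants and passed in neither. Abca8a, of the same cluster, read 7.70, 7.73 and 7.67 on the wild-type and 7.69, 7.67 and 7.65 on the mutant colon arrays. The small-intestinal values were 7.92, 7.86 and 7.92 in wild type and 7.85, 7.82 and 7.85 in mutant. No colon array passed, and the gene was at least 1.08-fold higher in wild-type small intestine (limma adjusted p = 0.000225). Abca8a entered the test through small-intestinal arrays alone, so this p-value is a description. Abca2, best known from brain, read 7.75, 7.73 and 7.74 on the wild-type and 7.78, 7.78 and 7.89 on the mutant colon arrays. On the small-intestinal arrays, wild type gave 7.90, 7.80 and 7.83 and mutant 7.82, 7.80 and 7.83. Its wild-type difference of 0.10 ± 0.036 passed narrowly (limma adjusted p = 0.0417), with all wild-type colon values under the limit, and was lost in 8 of the 12 refits without 1 array (0.08 to 0.11), those without any of the wild-type colon or mutant small-intestinal arrays or without wild-type small-intestinal array 1 or 3. Abca12, which carries glucosylceramide in epidermis, was at least 1.06-fold higher in wild-type colon (limma adjusted p = 0.0266), a call lost without colon or small-intestinal wild-type array 1 or 3 (-0.14 to -0.10). The only Abca12 values above the limit were from colon, so its p-value is a description too. So is that of Abca2, which met the rule of 3 arrays only through small-intestinal arrays, with 2 mutant colon arrays above the limit. Abca14, Abca15 and Abca17 had wild-type differences of -0.01 each and did not pass. The cluster on chromosome 11 holds Abca8b, Abca8a, Abca9, Abca6 and Abca5 side by side in RefSeq order, of which Abca8a and Abca9 were tested. Smooth muscle and fibroblast markers had the same direction as these 2 genes, as had most tested enterocyte, Paneth, endothelial and macrophage markers. Colonocyte markers and most epithelial and goblet markers went the other way. The part of any cell type in the Abca8a and Abca9 differences was not tested.

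**Figure D3:**
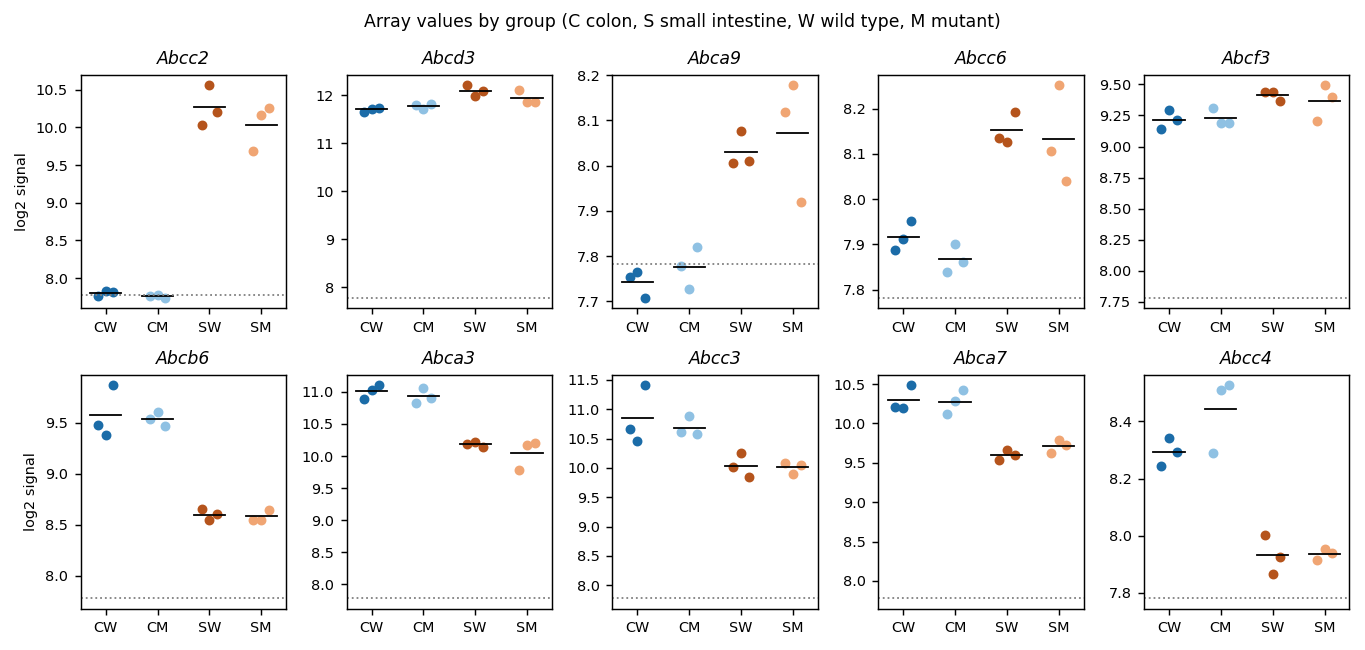
Log2 signal of each of the 12 arrays (points) and group means (bars) for the 5 largest called differences in each direction in wild type, by group (C colon, S small intestine, W wild type, M mutant), with the dim-probe limit dotted and a scale of its own for each gene. The tissues are apart in every panel for wild type, while wild type and mutant of a tissue overlap.

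All 4 transporters of mitochondria and lysosomes in the B subfamily were tested, and 1 passed in wild type, against 41.2% of all features. Abcb6, a porphyrin transporter of mitochondria and other organelles, read 9.48, 9.38 and 9.86 on the wild-type and 9.53, 9.60 and 9.47 on the mutant colon arrays. Wild-type small intestine read 8.66, 8.54 and 8.60, and mutant small intestine 8.55, 8.55 and 8.64. The 6 colon values were all above the 6 small-intestinal values, and array 3 of wild-type colon was the highest. The wild-type difference was -0.97 ± 0.10 (1.96-fold, limma adjusted p = 2.32e-05). Abcb9, a lysosomal peptide transporter, differed by 0.15 ± 0.063 in wild type (adjusted p = 0.0788) and 0.20 ± 0.063 in mutant (adjusted p = 0.0256). The mutant call was lost without colon mutant array 2 or 3 or small-intestinal mutant array 1 or 3 (0.15 to 0.20), and the wild-type value passed without colon mutant array 1. A second Abcb9 probe passed in both genotypes with each probe as its own feature. It gave 0.18 in wild type and 0.22 in mutant (limma adjusted p = 0.0191 and 0.00794). The mitochondrial members Abcb8 and Abcb10 had wild-type differences of 0.02 and -0.01. Abcb5, set apart from these groups, had a difference of 0.01, and none of these 3 passed. Further Abcb8 probes gave -0.157, -0.087 and -0.078 in wild type and did not pass. In mutants the same probes gave 0.084, 0.115 and -0.047. Of these, 0.115 passed with each probe as its own feature (limma adjusted p = 0.0435).

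Abcd3, the peroxisomal membrane protein that takes up branched fatty acids and bile acid precursors, read 11.66, 11.73 and 11.75 on the wild-type and 11.81, 11.71 and 11.81 on the mutant colon arrays. In the small intestine it read 12.21, 11.98 and 12.09 in wild type and 12.12, 11.86 and 11.87 in mutant. All small-intestinal values were above all colon values. In wild type the difference was 0.38 ± 0.076 (1.30-fold, limma adjusted p = 0.00208). The 3 further probes gave 0.56, 0.37 and 0.13, of which 0.13 did not pass. In mutants the difference was 0.17 ± 0.076 and did not pass (adjusted p = 0.108). The same 3 further probes gave 0.162, 0.085 and 0.095 there and did not pass. The difference between the values of 0.38 and 0.17 did not pass either, at -0.21 ± 0.11 (adjusted p = 0.891). Abcd4, which serves the lysosomal export of vitamin B12, read 8.0, 8.03 and 7.93 on the wild-type and 8.11, 8.06 and 7.96 on the mutant colon arrays. The small-intestinal values were 8.04, 8.01 and 8.01 in wild type and 8.04, 7.92 and 7.87 in mutant. Its groups overlapped, with a wild-type difference of 0.03 ± 0.050.

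Abcc9, the sulfonylurea receptor subunit of potassium channels in smooth and cardiac muscle, read 7.75, 7.72 and 7.75 on the wild-type and 7.74, 7.77 and 7.73 on the mutant colon arrays. On the small-intestinal arrays, wild type gave 7.82, 7.93 and 7.89 and mutant 7.99, 7.92 and 7.93. No colon array passed the limit and every small-intestinal array did. Abcc9 was at least 1.07-fold higher in wild-type and at least 1.12-fold higher in mutant small intestine (limma adjusted p = 0.00588 and 0.000674). As the gene entered the test through small-intestinal arrays alone, these p-values are descriptions and not independent support for the difference. The smooth muscle markers were higher in the same samples, at 10.34 to 10.51 against 7.86 to 8.04 in colon. Most tested enterocyte, Paneth, fibroblast, endothelial and macrophage markers were higher there too, while colonocyte and most epithelial and goblet markers were lower. The part of any of these cell types was not tested.

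The 4 soluble ATPases were all tested, and 2 passed in wild type, where 41.2% of all features did. Abcf3, a ribosome-associated ATPase, read 9.14, 9.30 and 9.21 on the wild-type and 9.31, 9.19 and 9.19 on the mutant colon arrays. Wild-type small intestine read 9.44, 9.44 and 9.37, and mutant small intestine 9.21, 9.49 and 9.40. The wild-type groups were apart, the mutant groups overlapped, and the wild-type difference was 0.20 ± 0.069 (limma adjusted p = 0.0393). The second Abcf3 probe went the other way, at -0.04. Leaving out colon wild-type array 1 or 3, small-intestinal wild-type array 1, 2 or 3, or small-intestinal mutant array 3 gave 0.16 to 0.23 and ended this call (adjusted p = 0.0506 to 0.133). Abcf1, which acts in translation initiation, was 1.13-fold higher (0.18 ± 0.061, adjusted p = 0.0356), a call lost without colon wild-type array 2 or 3 or any wild-type small-intestinal array (0.15 to 0.20). Its 2 further probes gave 0.02 and 0.06 and did not pass, nor did the mean of its 3 probes (0.09, adjusted p = 0.079). Abce1, which splits ribosomes for recycling, read 8.04, 7.96 and 7.84 on the wild-type and 7.95, 7.96 and 7.97 on the mutant colon arrays. In the small intestine it read 8.06, 7.91 and 7.96 in wild type and 7.92, 8.03 and 8.15 in mutant. Its groups overlapped throughout, and the wild-type difference was 0.03 ± 0.064 (95% interval -0.11 to 0.17). Abcf2 differed by 0.22 (95% interval -0.02 to 0.46) and did not pass.

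The tissue comparison in the mutant mice takes its means from the other 6 arrays, while its spread comes from the same fit over all 12 arrays as that of the wild-type comparison. In it 13 of the 27 members passed, where 39.4% of all features did, 7 higher (17.3% of all features) and 6 lower (22% of all features) in small intestine. A set of 12 members passed in both genotypes, which is 75% of the wild-type and 92.3% of the mutant calls, and all 12 had the same direction. The matching shares over all features were not computed, and both comparisons use the same estimate of spread. The overlap is therefore a description, and whether it is particular to ABC genes was not tested. The arrays of the tissues did not overlap for 16 of the 27 in mutants, against 48.7% of all features. Abca2, Abcc10, Abcd3 and Abcf3 passed in wild type alone, and Abcb9 in mutant alone, though the second Abcb9 probe passed in both. No member's tissue difference was shown to depend on genotype, as the test of that difference, which is the same as the interaction given further on, called none. Mutant tissue differences of Abca3, Abca7, Abcb6 and Abcc4 were -0.88, -0.56, -0.95 and -0.50. The second Abca7 probe gave -0.11 in mutants and did not pass. Nor did the further Abcf1 probes, at 0.06 and 0.03. The Abcc3 value of -0.67 ± 0.21 (adjusted p = 0.026) lost its call without colon mutant array 2 (-0.57), without small-intestinal mutant array 2 (-0.61) and without small-intestinal mutant array 3 (-0.69). Without the 3 arrays with acinar signal 9 of the 13 calls remained, and the Abcc3 and Abca9 values of -0.64 and 0.14 no longer passed. Mutant small intestine then rests on 1 array, which is assumed to vary like the arrays of the other groups.

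The comparison of mutant with wild-type small intestine asks whether the other ABC genes differ when the epithelium has lost Cftr. No member passed. Of all features 0.675% did, so that 0 of 27 lies near the background. By unadjusted p under 0.05, 0 of the 27 members passed against 8.14% of all features, counting only the brightest probe of each gene. Further Abcd3 probes gave -0.241, -0.217 and -0.118, and further Abcb8 probes 0.139, 0.119 and -0.012. None of these passed with each probe as its own feature (lowest limma adjusted p = 0.402). Differences ran from -0.23 for Abcc2 to 0.11 for Abcf1 on the log2 scale, and no 95% interval of any member reached beyond -0.57 or 0.44. The median difference was -0.005 over the members and 0 over all features, and the median size was 0.041 against 0.035. Mutant and wild-type arrays did not overlap for 2 of the 27, Abcb10 (higher) and Abca8a (lower), against 13.5% of all features.

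By p, the closest to the threshold in small intestine were Abca8a, Abcc9 and Abcd3, with the array values given above. Abca8a differed by -0.06 ± 0.029, with all mutant values under all wild-type values (limma adjusted p = 0.664). Abcc9 differed by 0.07 ± 0.033 (adjusted p = 0.704), and Abcd3 by -0.15 ± 0.076 (adjusted p = 0.736). Groups overlapped for both. The Abcc2 value of -0.23 ± 0.15 (95% interval -0.57 to 0.10, adjusted p = 0.856) turned to 0.14 when the 3 arrays with acinar signal were left out, and did not pass there either. That value sets 1 mutant array against 2 wild-type arrays, with the lone array assumed to vary like the other groups. Abcc3 had the widest interval, from -0.49 to 0.44, against -0.06 to 0.07 for Abca17.

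In colon epithelium, the same comparison called no member and no feature at all (0% of 15996 by limma, with 5.11% at an unadjusted p under 0.05). Abcc4 alone among the 27 members had an unadjusted p under 0.05. Its mutant arrays averaged 0.15 ± 0.061 above wild type (95% interval 0.01 to 0.28, adjusted p = 0.939), and mutant array 1 lay among the wild-type values. Abca2 differed by 0.08 ± 0.036 and was the 1 member of 27 whose groups did not overlap, against 8.85% of all features. Abcc10 differed by -0.07 ± 0.042. The largest difference was that of Abcc3, -0.16 ± 0.21, with an interval from -0.62 to 0.31. The median over the members was 0.005 and over all features 0, and 14 members were above 0 and 13 below.

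The test of whether the genotype difference itself differed between the tissues also called 0 of the 27 members and 0% of all features by limma. With the brightest probe of each gene, 0 members had an unadjusted p under 0.05, against 5.9% of all features. Further Abcd3 probes gave -0.394, -0.281 and -0.038, and further Abcb8 probes 0.241, 0.202 and 0.031. None of these passed with each probe as its own feature (lowest limma adjusted p = 0.564). The smallest p-values belonged to Abca2 (-0.10 ± 0.051, adjusted p = 0.887), Abcd3 (-0.21 ± 0.11, adjusted p = 0.891) and Abcd4 (-0.13 ± 0.071, adjusted p = 0.901), each with the more negative genotype difference in small intestine. Intervals over the members reached from -0.66 to 0.79. With 3 arrays a group, the smallest p an exact permutation test allows is 0.1.

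**Figure D4:**
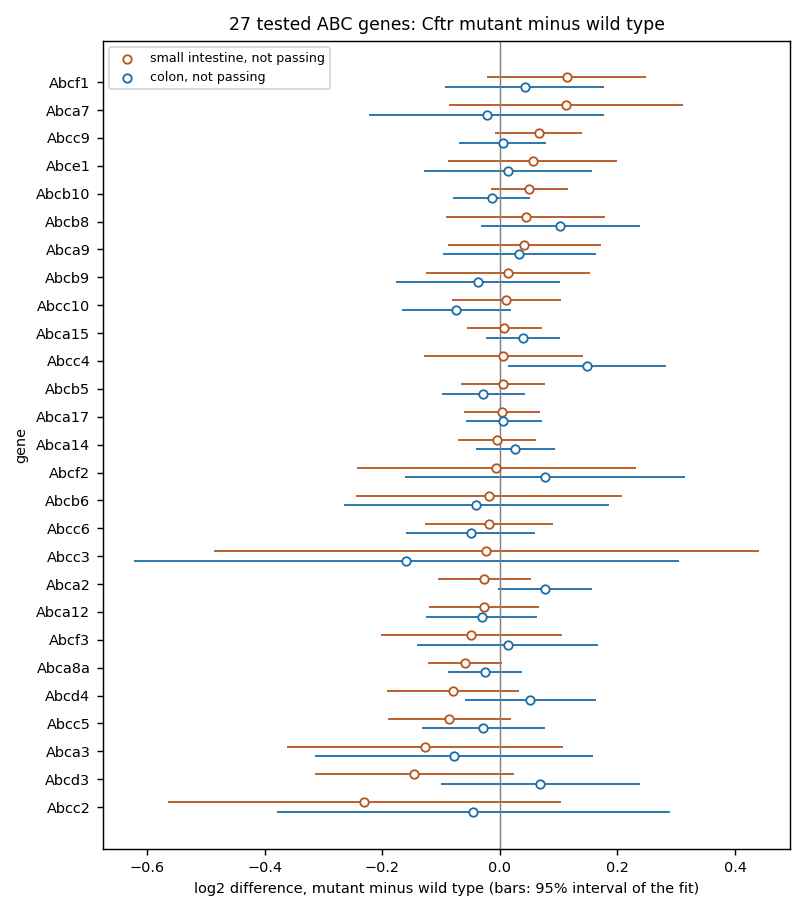
Log2 difference, mutant minus wild type, with the 95% interval of the limma fit, for the 27 tested ABC genes in small intestine (orange) and colon (blue). All points are open since no member passed, and they lie between -0.23 and 0.15.

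ABC transporters act with other proteins, of which 3 groups were followed in the same fit. Among 14 partner subunits, targeting factors and scaffolds, 11 were tested, and 8 were higher and 0 lower in wild-type small intestine, against 17.9% and 23.4% of all features. Their median log2 difference was 0.29, against -0.02 over all features. Pdzk1, a scaffold that holds transporters at the luminal membrane, was under the limit on every wild-type colon array (mean 7.74) and at a mean of 12.51 in small intestine, at least 26.4-fold higher (limma adjusted p = 2.51e-09). With 1 mutant colon array above the limit, Pdzk1 met the rule of 3 arrays only through small-intestinal arrays, so this p-value is a description. Slc9a3r1 (Nherf1), a scaffold of Cftr and other luminal proteins, was 2.22-fold higher (1.15 ± 0.16, adjusted p = 0.000156). Pex19, which delivers proteins such as Abcd3 to the peroxisome, was 1.5-fold higher (0.58 ± 0.054, adjusted p = 9.98e-06). Tap2, an antigen peptide transporter that is an ABC protein under another symbol, was 1.83-fold higher (0.87 ± 0.10, adjusted p = 5.96e-05).

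Bile acid and organic solute carriers numbered 19, of which 15 were tested, and 8 were higher and 2 lower in wild-type small intestine, against 17.9% and 23.4% of all features. Their median log2 difference was 0.48, and that of all features -0.02. Slc47a1, which exports organic cations, was 4.88-fold higher (2.29 ± 0.13, limma adjusted p = 2.57e-07). Slco2b1, an organic anion uptake carrier, was 3.86-fold higher (1.95 ± 0.16, adjusted p = 3.36e-06). Slco3a1, of the same family, and Slc22a4, which takes up ergothioneine, were 1.44- and 1.45-fold higher, with 1 of 3 wild-type colon arrays above the limit for each. The 2 lower carriers were Slc22a18 at -0.62 ± 0.072 and Fabp6, the bile acid binding protein of ileum, at -0.82 ± 0.25.

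Regulators of ABC genes went both ways. Of 15 listed 12 were tested, and 2 were higher and 4 lower in wild-type small intestine, where 17.9% and 23.4% of all features were. The median log2 difference was -0.05 over these and -0.02 over all features. Nr1i3 (Car), a receptor for drugs and bile acid products that is known to act on Abcc2, was 3.96-fold higher (1.99 ± 0.087, limma adjusted p = 3.32e-08). Nr1h3 (Lxr alpha), a sterol receptor, was 2.15-fold higher (1.11 ± 0.069, adjusted p = 4.87e-07). Nr1h4 (Fxr), the bile acid receptor, was 2.85-fold lower (-1.51 ± 0.11, adjusted p = 1.87e-06), and Rxrb, a partner of these receptors, was 1.64-fold lower (-0.72 ± 0.056, adjusted p = 2.44e-06). In the genotype comparisons of either tissue, and in the test of their difference, 0 members of the 3 lists passed by limma. By unadjusted p under 0.05, 3 of the 11 partners, 2 of the 15 carriers and 1 of the 12 regulators did in small intestine, against 8.14% of all features, and 0, 0 and 2 in colon, against 5.11%. Pdzk1 differed by -0.65 ± 0.15 between mutant and wild-type small intestine (adjusted p = 0.12). It passed with the mean of its kept probes (-0.61, adjusted p = 0.0452) and with a trended robust prior (adjusted p = 0.0492), and a further Pdzk1 probe passed when each probe was its own feature.

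**Figure D5:**
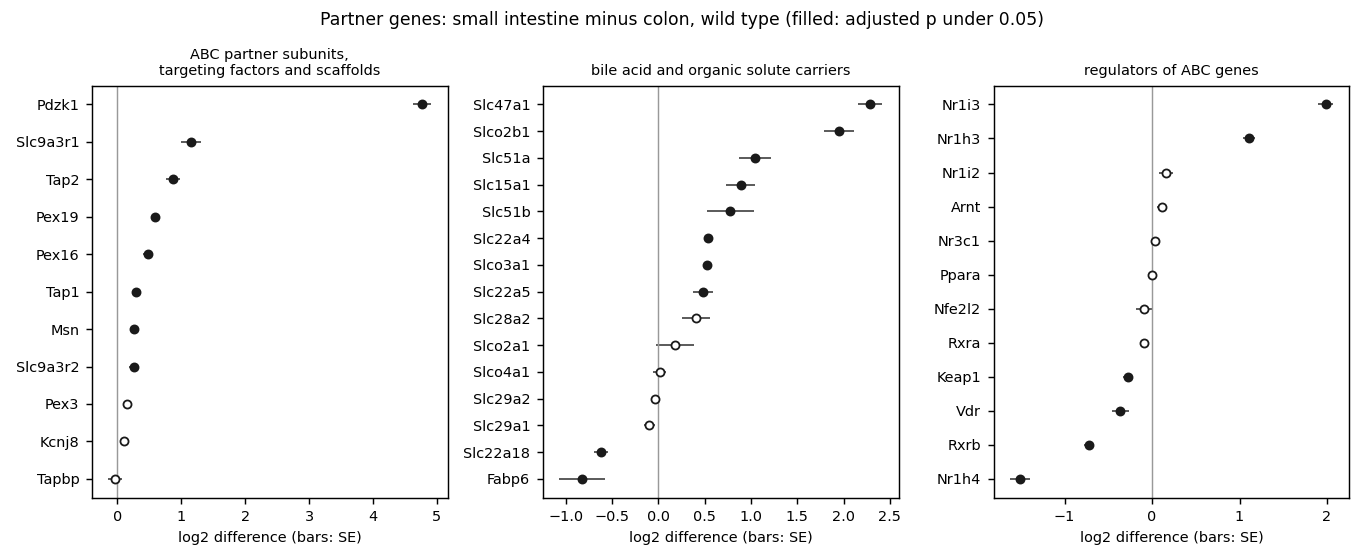
Log2 difference, small intestine minus colon in wild type, with its SE, for the tested members of the 3 lists, filled where the limma adjusted p was under 0.05. Partners lie mostly to the right of 0, with Pdzk1 at 4.77, and regulators spread from -1.51 to 1.99.

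Several members are read by more than 1 probe, and the probe with the highest mean stood for the gene. Of the 15 tested ABC genes with several kept probes, all probes of a gene had 1 sign for 10 in the wild-type and 9 in the mutant tissue comparison. Among the called genes with several probes this held for 7 of 8 in wild type, with Abcf3 as the exception, and for 6 of 6 in mutant. In the genotype comparisons, where no member passed, it held for 9 of 15 in small intestine and 9 of 15 in colon.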

How the data were processed

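Per the labels' protocols, total RNA was isolated with the QIAGEN RNeasy kit, turned into biotinylated cRNA with the Ambion Illumina TotalPrep kit and hybridised to Illumina mouse BeadChips. The authors deposited log2 values with nearly the same distribution on all 12 arrays (medians 7.75603 to 7.75663), and the submitters' processing notes name limma without a version. Background correction, slide and scan date are not given in the sources used here. A second table's 24 columns of signals and detection p-values carry names that match no sample and were not used.

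Values peaked at a mode of 7.70 with a mirrored SD of 0.0276 below it. The limit lay 3 SD above that mode, at 7.78, and 22873 of 45281 probes passed on at least 3 arrays. Gene symbols came from the platform annotation (34885 probes with 1 symbol, 18 with several, 10378 with none). They were updated to the RefSeq symbol where the Entrez gene number matched (34807 probes). The brightest probe stood for its gene, which gave 15996 features, 12192 genes and 3804 unnamed probes. limma 3.58.1 in R 4.3.3 fitted a mean per group over all 12 arrays (8 residual degrees of freedom), with Benjamini-Hochberg adjustment over all features within a contrast and a threshold of 0.05. A group under the limit on all its arrays gives a bound, the other group's mean against the limit. The script was tested on simulated data. The number of arrays limits the precision.

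Members and gene lists were chosen with earlier results of these data known. Array values are given for members called in a genotype comparison (none), the 3 smallest p-values of each genotype comparison and of their difference, the 5 largest called tissue differences per direction in wild type with groups apart, and Abcb1a, Abcb1b, Abcg2, Abcc1, Abcc2, Abcc3, Abcc4, Abcb4, Abcb11, Abcd3 and Abce1. List members named are the 4 with the smallest p in the wild-type tissue comparison. Alternatives changed the limit, probe choice, variance prior, weights, arrays used, replicate block and scale.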

Additional observations from a re-analysis of the deposited data

How the results depend on the processing

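Counts of called ABC genes were recomputed under 24 alternatives, 23 for the difference between genotype contrasts, which could not be fitted with only the groups of the contrast. In both genotype comparisons and in their difference the count was 0 under each. Wild-type tissue calls were 9 higher and 7 lower. They ran from 6 to 10 and from 6 to 7 when 1 array was left out, and from 7 to 10 and from 6 to 8 under the other settings. Mutant tissue calls were 7 higher and 6 lower, with 6 to 7 and 4 to 6 when 1 array was left out, and 5 to 8 and 4 to 6 otherwise. Of the 16 wild-type calls 12 were kept in every setting and Abca2, Abca12, Abcf1 and Abcf3 were lost in some. Of the 13 mutant calls 8 were kept in every setting and Abca9, Abca12, Abcb9, Abcc3 and Abcf1 were lost in some. With no filter Abcb4 was called in the wild-type tissue comparison on a probe that was above the limit on 0 arrays. Abca2 has no value with the limit at 5 SD.

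The partner list, with 0 calls between genotypes in small intestine, had 1, Pdzk1, with the mean of kept probes and with a trended robust prior, and 1 through a further Pdzk1 probe with every probe as its own feature. The reported Pdzk1 probe differed by -0.65 ± 0.15 (adjusted p = 0.12) and did not pass in that last setting (adjusted p = 0.142). Leaving out 1 array gave 0 to 1 calls for that list, the 1 being Slc9a3r2 without small-intestinal wild-type array 2. Features called in the small-intestinal genotype comparison, 108 in all, fell to 3 with only the groups of the contrast, 9 after subtraction of the mode, 2 and 0 without small-intestinal wild-type array 1 or 3, and rose to 179 with array weights and 319 without the 3 arrays with acinar signal, the cause of which was not tested. That last setting leaves 2 wild-type arrays and 1 mutant array of small intestine, and the lone array is assumed to vary like the other groups.

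Reversals of sign were confined to differences that did not pass. The Abce1 tissue difference in wild type, 0.03, ran from -0.023 to 0.075 when 1 array was left out, with -0.023 without colon wild-type array 3 and -0.013 without small-intestinal wild-type array 1. The Abca2 tissue difference in mutants, -0.001, turned to 0.003 with array weights, 0.019 after subtraction of the mode, 0.014 without the arrays with acinar signal (1 mutant small-intestinal array), 0.034 without colon mutant array 3 and 0.008 without small-intestinal mutant array 2 (range -0.02 to 0.034 over arrays left out). Abcc2 between genotypes in small intestine turned from -0.23 to 0.14 without the arrays with acinar signal, on that 1 mutant array. Of 1433 gene values under alternatives, 1360 kept direction and call, 57 lost the call, 8 gained it and 8 changed sign.

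Same-numbered arrays did not deviate together in every pair (correlations from -0.21 to 0.37), so the numbers were not taken as pairs. With the replicate number as a fixed block, the wild-type tissue calls were 16 and the mutant calls 12, and with a random block 16 and 13. The count between genotypes was 0 with either block. Dim genes near the floor of the values limit what can be seen, since their differences are understated. With the mode subtracted and 16 added before the log, the Abcc2 tissue difference was 5.03 in wild type, a size that depends on the constant added.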
